A study of Caenorhabditis elegans with 2 samples.

Results

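The genes described here are the 244 microRNA (miRNA) genes of Caenorhabditis elegans that remain when 17 genes of the mir-35, mir-51 and mir-58 groups are left out by name, of 46890 annotated genes on the nuclear chromosomes. They are all genes of biotype miRNA in the Ensembl WBcel235 annotation (261) except mir-35 to mir-41, mir-51 to mir-56, mir-58a, mir-80, mir-81 and mir-82. Genes that share a name or seed with these but are not listed, such as mir-42, mir-55b, mir-58b and mir-58c, were kept. The study mapped where RNA polymerase II sits on the genome by ChIP-seq, in which an antibody to its largest subunit, AMA-1, recovers bound DNA for sequencing. Early embryos of N2, the laboratory wild type, were used whole and with both sexes mixed, in 2 biological replicates of a single group with no mutant or treatment. The data are lists of peaks on the ce11 build. An optimal list of 724 peaks came from a procedure that weighs how alike peaks rank between replicates (IDR). Longer lists of 30000 peaks each, which include background, exist for each replicate and for both pooled. The optimal peaks were also the 724 pooled peaks of highest signal, and a place among them does not by itself mean a high rank in each replicate. A summit is the highest point of a peak, and a gene was taken to have a summit when one lay inside it or within 200 bp. Peaks were ranked by the authors' signal value within each list, with rank 1 the highest. A gene's rank in a list is that of the highest peak with a summit within 200 bp, found in each list separately. Where a replicate is said to rank a summit, the rank is that of its best peak for the gene. Peaks were not matched between lists, so this may be another peak. No source used here states the scale of that signal or the read depth, and both replicates name the same control experiment.

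A miRNA gene is transcribed by RNA polymerase II into a long primary transcript. That transcript holds a hairpin, from which a short mature strand is cut. The mature strand guides a silencing complex to target messages, and its bases 2 to 8, the seed, set most of that targeting, so miRNAs with the same seed form families. Some hairpins lie between genes and have their own promoters, and others lie in introns of protein-coding hosts and can be cut from the host's transcript. In this species, lin-4 and the let-7 family time larval stages, and lsy-6 and mir-124 act in neurons.

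An optimal AMA-1 summit lay at 13 of the 244 genes (5.33%, exact binomial 95% interval 2.87 to 8.94). They were mir-229, mir-42, mir-43, mir-44, mir-2, mir-55b, mir-45, mir-8196a, mir-72, mir-73, mir-74, mir-61 and mir-250. Over all annotated genes, most of them protein-coding or piRNA genes, the same rule found a summit at 1.52%. Among protein-coding genes it found one at 2.65%, and among other noncoding genes of 200 bp or less, piRNA genes left out, at 1.66%. For a gene of 94 bp, the median length of these miRNA genes, 0.348% of all genome positions lay as near to an optimal summit. The 13 genes rest on 9 summits, since mir-42, mir-43 and mir-44 share a summit, as do mir-73 with mir-74 and mir-61 with mir-250. The interval covers counting error only and treats genes as separate, which genes on a shared summit are not.

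The mature strands of these genes, other than mir-2, mir-55b and mir-8196a, are shown because most of the 13 fall into a few seed groups. Each is the arm generally known as the guide strand, read from the RefSeq annotation of WBcel235, and the capitals mark the seed.
mir-42: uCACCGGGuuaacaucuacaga
mir-43: uAUCACAGuuuacuugcugucgc
mir-250: aAUCACAGucaacuguuggc
mir-44: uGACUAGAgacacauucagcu
mir-45: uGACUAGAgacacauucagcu
mir-61: uGACUAGAaccguuacucauc
mir-72: aGGCAAGAuguuggcauagcuga
mir-73: uGGCAAGAuguaggcaguucagu
mir-74: uGGCAAGAaauggcagucuaca
mir-229: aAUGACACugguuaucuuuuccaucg

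The seed of mir-44, mir-45 and mir-61 occurs in 4 of the 244 genes when either arm is counted, and 3 of the 4 had an optimal summit. The fourth, mir-247, had no summit in any list. The seed of mir-43 and mir-250 is shared with mir-2, and 3 of 4 genes had an optimal summit. The gene without any summit was mir-797. The counts for these 2 seeds are not separate, since mir-43 shares its summit with mir-44 and mir-250 shares its summit with mir-61. The genes mir-247 (chrX:4756971-4757068, plus strand) and mir-797 (chrX:4757109-4757197, plus strand) are themselves neighbours, so this pair holds the same 2 seeds as the neighbours mir-43 with mir-44 and mir-61 with mir-250, which both had an optimal summit. The seed of mir-72, mir-73 and mir-74 occurs in 6 genes, of which 3 had an optimal summit, and mir-266, mir-8187 and mir-8188 had a summit in no list. The seed of mir-229 occurs in 5 genes, and only mir-229 had an optimal summit. The others were mir-63 on X and the neighbours of mir-229, namely mir-64, mir-65 and mir-66. The seed of mir-42 is that of the 7 genes mir-35 to mir-41, which were left out by name, and mir-42 is its sole carrier among the 244. No gene among the 244 carries the seed of mir-51 or mir-58a. The seeds of mir-80, mir-81 and mir-82, which were also left out by name, were not compared, so relatives of these may remain. Of the genes named like mir-58a, mir-58b had a summit in no list, and mir-58c had a pooled rank of 7442 and a replicate 1 rank of 4762. Apart from those of mir-51 and mir-58a, the seeds were taken from genes with an optimal summit, so each such group holds one by choice. Over all 244 genes the share with an optimal summit was 5.33%. The seed counts describe the annotated genes, and no test was made of them.

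The cluster of mir-42, mir-43 and mir-44 lay between protein-coding genes on chromosome II and shared the summit at 11889900. Its peak (chrII:11889730-11889912) ranked 47 in the optimal list with a signal of 135. Its rank was 51 in replicate 1 and 52 in replicate 2, the closest match between replicates among the 13 genes. The summit fell inside the mir-42 gene (chrII:11889811-11889905, plus strand), 10 bp before mir-43 and 123 bp before mir-44 along their strand. The peak itself ended inside mir-43 and did not reach mir-44. The mir-43 hairpin starts 5 bp past the last base of the mir-42 hairpin. The stretch from the start of the mir-42 gene to the end of the mir-43 gene is shown with both mature strands in capitals, and the summit is its base 90.
chrII:11889811-11890007, plus strand, WBcel235: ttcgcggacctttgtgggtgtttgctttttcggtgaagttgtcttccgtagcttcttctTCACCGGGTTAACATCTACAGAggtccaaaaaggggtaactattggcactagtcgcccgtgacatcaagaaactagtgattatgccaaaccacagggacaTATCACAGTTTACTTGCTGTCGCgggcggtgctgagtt
The noncoding gene ZK930.12 lies on the other strand over mir-42 and mir-43. ChIP-seq peaks carry no strand, so these genes cannot be told apart.

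The gene mir-45 gives the same mature strand as mir-44 from another hairpin on chromosome II (chrII:11880944-11881039, minus strand). It had its own summit, rank 75 with a signal of 107, at 47 bp upstream of the gene. Replicate 1 ranked it 417 and replicate 2 ranked it 66, so both placed it within their upper 724. The hairpins of mir-44 and mir-45 matched at 73 of 106 aligned columns (68.9%), and their mature strands were identical over all 21 bases. They are shown with the mature strand in capitals.
mir-44: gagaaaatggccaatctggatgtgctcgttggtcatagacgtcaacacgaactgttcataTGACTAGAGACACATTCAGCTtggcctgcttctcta
mir-45: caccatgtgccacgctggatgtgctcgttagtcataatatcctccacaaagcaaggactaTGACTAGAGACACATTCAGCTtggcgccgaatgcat
Every stretch of 31 bases in either gene and its 200 bp flanks occurred once in the genome, so reads of that length could be placed at one gene or the other. The noncoding gene ZK930.13 lies on the other strand over mir-45, and the 3' end of top-2, a topoisomerase gene, lay 498 bp from the summit.

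The neighbours mir-61 and mir-250 lay on chromosome V and shared a summit inside mir-61 (chrV:11770060-11770156, minus strand). It ranked 593 in the optimal list with a signal of 54.2, the lowest of the 9 summits. The best peak near either gene ranked 492 in replicate 1 and 2308 in replicate 2, which is outside replicate 2's upper 724. The shared summit lay 99 bp upstream of mir-250. Protein-coding genes were close on both sides. The 3' end of sel-11, a ubiquitin ligase gene, was 215 bp from the summit. On the other side, the summit lay upstream of F55A11.4, at -353 bp from the 5' end of that gene. It runs on the other strand from mir-61, and which of these genes the polymerase belongs to was not tested.

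The genes mir-72, mir-73 and mir-74 share a seed but lie on different chromosomes. At mir-72 (chrII:2452838-2452936, plus strand) the summit lay 75 bp upstream and ranked 175 with a signal of 79.9. Replicate 1 ranked it 180 and replicate 2 ranked it 427. The 3' end of pqn-42, which runs on the other strand, lay past mir-72, 207 bp from that summit. At mir-73 and mir-74 on X (chrX:2368765-2368863 and chrX:2369043-2369139, plus strand) the summit fell in the gap between the hairpins, 58 bp past mir-73 and 122 bp before mir-74. It ranked 438 with a signal of 58.6, and replicate 1 ranked it 810 and replicate 2 ranked it 645. The noncoding genes T24D8.14, on the same strand, and T24D8.16, on the other, lie over part of that gap and of mir-74.

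**Figure D1:**
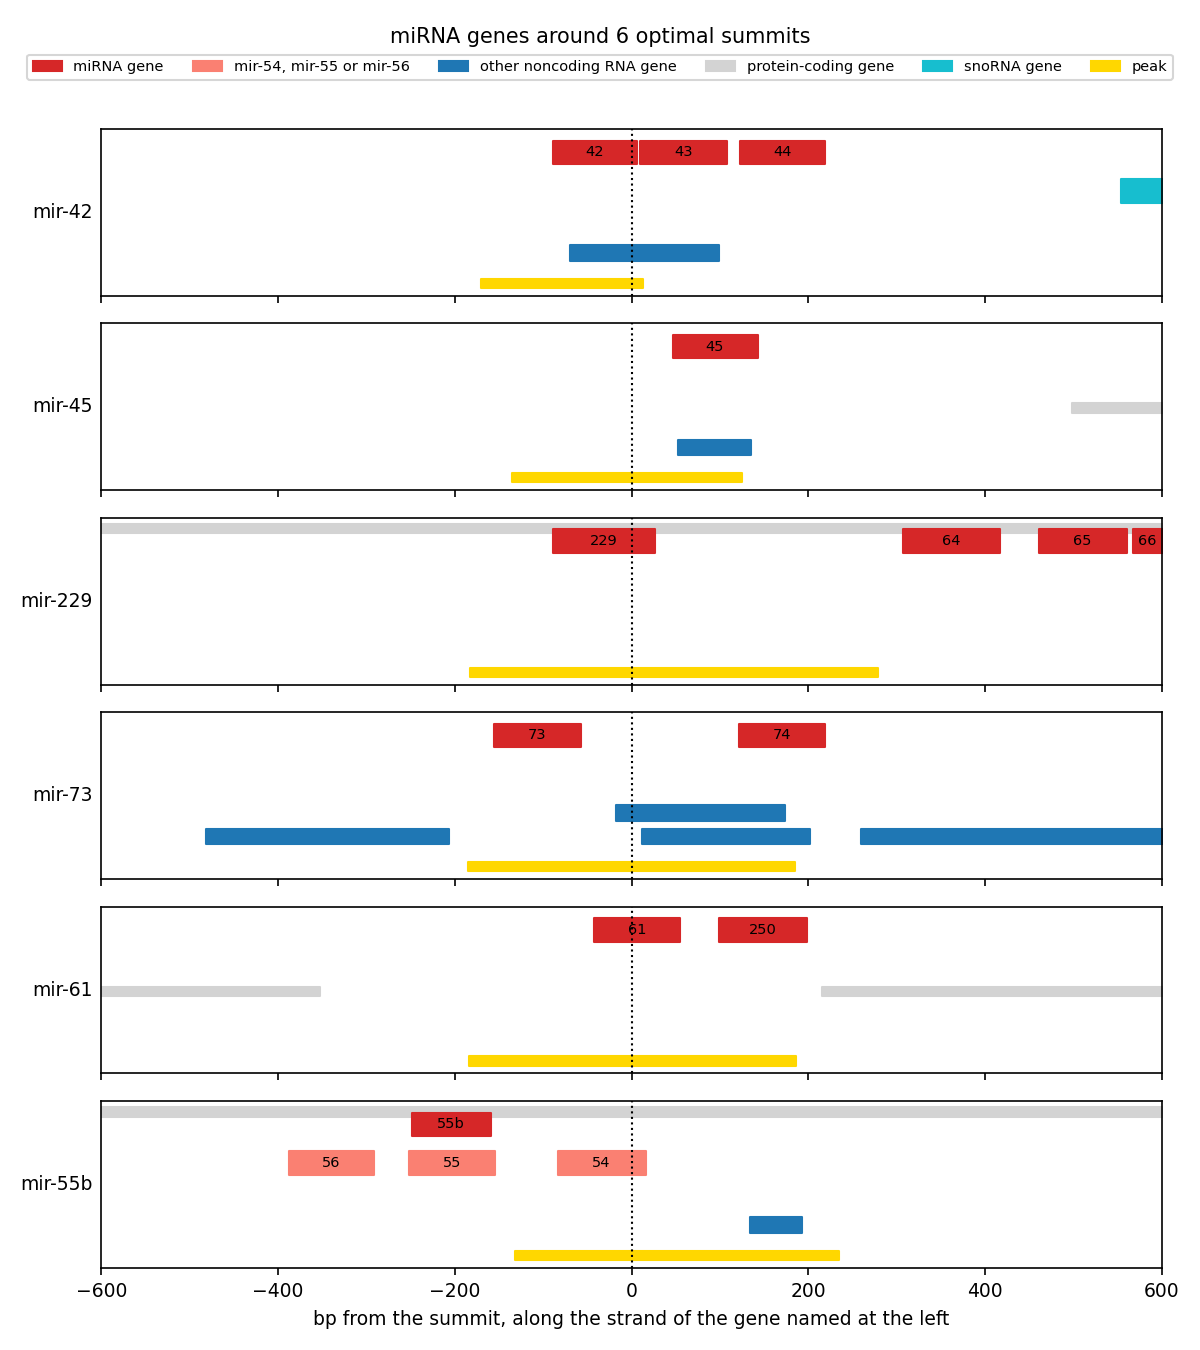
Gene maps around 6 optimal summits, as bp from the summit (dotted line) along the strand of the gene named at the left, with miRNA genes in red and labelled by number, mir-54 to mir-56 in pale red, other noncoding genes in blue, a snoRNA gene in cyan, protein-coding genes in grey and the peak in gold. Bars for other noncoding genes are drawn in the upper blue row where they run with the named gene and in the lower row where they do not. The summit falls inside mir-42, mir-229 and mir-61, in the gap between mir-73 and mir-74, 47 bp before mir-45, and inside mir-54 in the mir-55b panel.

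Inside protein-coding genes on the same strand, the highest summit was at mir-229, in an intron of gcn-1, a translation regulator gene of 45964 bp on chromosome III. The summit lay inside the hairpin gene (chrIII:2172452-2172566, plus strand) and ranked 34 with a signal of 158. Replicate 1 ranked it 102 and replicate 2 ranked it 23. The hairpin lies 20507 bp from the 5' end of gcn-1 and 25342 bp before its 3' end, and the host's best summit away from its miRNA genes ranked 7639. The hairpins of mir-64, mir-65 and mir-66 follow mir-229 at 282, 436 and 542 bp. Within 200 bp, each of these had a best pooled rank of 28135. Replicate 1 ranked its best peak at them 5278. Replicate 2 ranked its best peak at mir-65 and mir-66 9809 and had none at mir-64. The high summit was thus at the first hairpin of the run, 307 bp before mir-64.

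A second intronic gene, mir-2, lay in ppfr-1, a phosphatase regulator gene of 25884 bp on chromosome I. Its summit was 98 bp upstream of the hairpin and ranked 56 with a signal of 119. Replicate 1 ranked it 50 and replicate 2 ranked it 110. The same host holds mir-71, a miRNA known for a role in lifespan, at which only replicate 2 had a peak, at rank 21245. Elsewhere in ppfr-1 the best summit ranked 464.

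The third, mir-55b on X (chrX:13144830-13144919, plus strand), lies in an intron of F09A5.3 and overlaps mir-55 on the other strand. Its summit ranked 63 with a signal of 115, but lay 160 bp past mir-55b and inside mir-54. The best peak within 200 bp of mir-55b ranked 209 in replicate 1 and 2601 in replicate 2. The genes mir-54 and mir-55 were left out by name, and the optimal summit is as much theirs. Without summits near other short RNA genes or the genes left out, 12 of the 244 genes had an optimal summit and mir-55b was the one lost.

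The last of the 13, mir-8196a on X, had the least alike ranks. Its summit, 21 bp past the gene (chrX:2328994-2329124, plus strand) and just past the lincRNA gene linc-154, which overlaps the start of mir-8196a, ranked 158 with a signal of 83.5. The best peak within 200 bp of the gene ranked 51 in replicate 2 and 13428 in replicate 1. The similarly named mir-8196b, in an intron of prx-1 on the other strand, ranked 3636 in the pooled list and 2034 in replicate 2, with no peak in replicate 1.

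Beyond the optimal list, most of the genes ranked highest lay inside a host. The next 7 genes in the pooled list were mir-86 and mir-8211 on a shared summit (974), mir-4929 (1112), mir-90 (1232), mir-87 (1462), mir-2218b (2028) and mir-124 (2489). Of these, 6 lay in a host on the same strand and mir-2218b lay between genes. The replicates differed widely on most of them. At mir-86, in an intron of Y56A3A.7, replicate 2 ranked its peak 264 and replicate 1 had none. At mir-87, in an intron of kup-1, replicate 1 ranked its peak 557 and replicate 2 ranked it 24316. At mir-90, in an intron of K01F9.2, replicate 1 ranked its peak 603 and replicate 2 ranked it 5757. The gene mir-50, in an intron of the talin gene tln-1, had a best pooled rank of 3167. Its best ranks were 928 in replicate 1 and 859 in replicate 2, from peaks that were not matched to the pooled one.

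**Figure D2:**
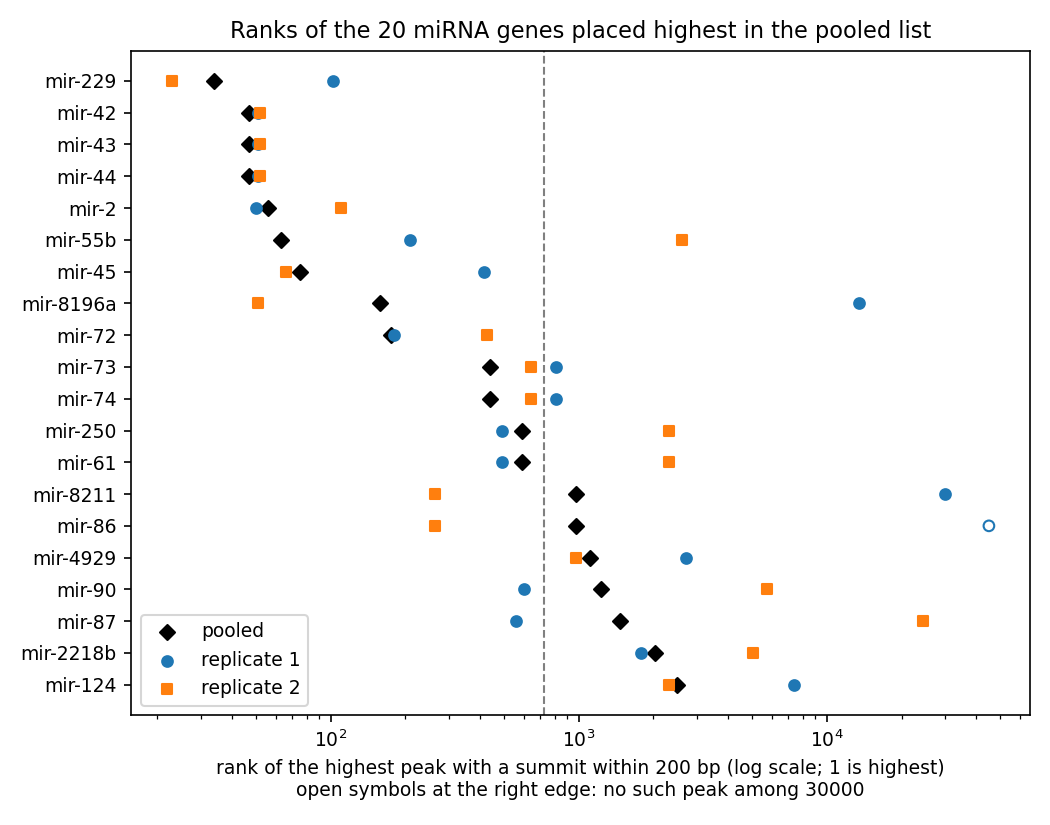
Rank of the highest peak with a summit within 200 bp, on a log scale, for the 20 genes placed highest in the pooled list, with black diamonds for the pooled list, blue circles for replicate 1, orange squares for replicate 2 and the dashed line at rank 724. Open symbols at the right edge mean no such peak, and genes on a shared summit have the same pooled point. The points of mir-42 to mir-44 lie together at 47 to 52, while those of mir-8196a, mir-86 and mir-87 lie far apart.

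Hairpins inside a host on the same strand and hairpins between genes gave optimal summits, and those inside a host on the other strand gave 0. Of the 244 genes, 74 overlapped a protein-coding gene on the same strand, 22 only on the other strand and 148 neither. The gene had an optimal summit in 3 of 74 same-strand cases (4.05%, 0.844 to 11.4). The count was 0 of 22 on the other strand, which allows a share of up to 15.4%. It was 10 of 148 between genes (6.76%, 3.29 to 12.1), on 6 summits. For comparison, 0.411% of positions inside protein-coding genes and 0.241% of positions outside them lay as near to an optimal summit. The order of the same-strand and between-genes shares did not hold in the single replicates. In replicate 1's upper 724 peaks the counts were 5 of 74 (6.76%) and 7 of 148 (4.73%), and in replicate 2's they were 4 of 74 and 8 of 148 (5.41% each). The intervals of the classes overlap, and no test between them was made.

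Down the pooled list the same-strand class gained more genes than the others. In the upper 2000 peaks it had 8 of 74 genes (10.8%, 4.78 to 20.2), against 1.19% of positions inside genes. Between genes the count stayed at 10 of 148 (6.76%), against 0.59% of positions outside genes, and on the other strand it stayed at 0 of 22. In the upper 5000 the counts for the same strand, the other strand and between genes were 14 of 74 (18.9%, 10.7 to 29.7), 2 of 22 (9.09%, 1.12 to 29.2) and 14 of 148 (9.46%, 5.27 to 15.4). The positions as near were 3.04% inside genes and 1.26% outside. In the upper 10000 they were 16 of 74 (21.6%), 2 of 22 (9.09%) and 18 of 148 (12.2%), against 6.14% of positions inside genes and 2.26% outside. In all 30000 peaks, 27 of 74 (36.5%, 25.6 to 48.5), 5 of 22 (22.7%, 7.82 to 45.4) and 29 of 148 (19.6%, 13.5 to 26.9) had a summit, against 17.5% of positions inside genes and 6.15% outside. The interval of the other-strand class held the share of positions inside genes at every length of the list. Its 5 genes were mir-5595 in nurf-1 (pooled rank 2929), mir-8196b, mir-8195 in tsr-1 (10867), mir-2218a in W09G3.8 (18895) and mir-8190 in hmr-1 (22253).

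**Figure D3:**
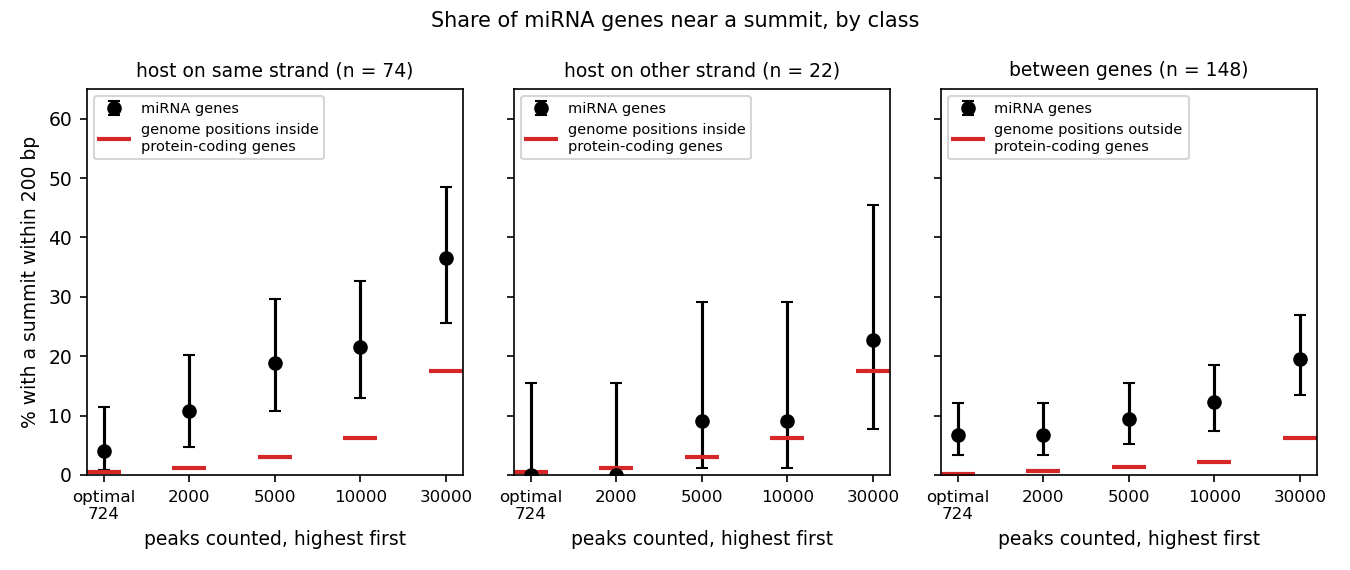
Share of miRNA genes with a summit within 200 bp (black points, with exact binomial 95% intervals) as more peaks are counted, for genes with a host on the same strand, with a host on the other strand only, and between genes. Red bars are the share of genome positions inside or outside protein-coding genes that lie as near to a summit. The black points of the same-strand class climb to 36.5%, and the other-strand points start at 0.

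The 74 same-strand hairpins lie in 67 hosts, and 66 of the 74 are intronic. An optimal summit away from the miRNA genes, between 500 bp upstream and the 3' end, was found in 5 of the 67 hosts (7.46%, 2.47 to 16.6), against 2.54% of all protein-coding genes under the same rule. The hosts are longer, with a median of 5042 bp against 2027 bp, and the part of length in that difference was not tested. The 5 were ppfr-1, ugt-50, arx-1, flcn-1 and hil-2. Of these, ppfr-1 alone also holds a hairpin with an optimal summit. For let-7, the annotated gene of 1732 bp includes longer transcripts and counts as same-strand through overlap with the small gene C05G5.7. It had no summit in any list.

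Optimal summits of genes between protein-coding genes mostly lay close to the hairpin, but their best pooled summits often did not. Within 2000 bp, 11 such genes had an optimal summit, and for 10 of these the highest one lay within 200 bp: 6 upstream, 2 inside the gene and 2 downstream. These 10 genes rest on 6 summits. A shared summit is counted for each of its genes, here and below, so it can be inside one gene and upstream of the next. Among same-strand hairpins 11 genes had an optimal summit within 2000 bp. For 3 of these it lay within 200 bp and for 6 it lay 201 to 1000 bp upstream. Those 6 were mir-62, mir-64, mir-65, mir-66, mir-8201 and mir-5546. At mir-64, mir-65 and mir-66 it was the summit inside mir-229, which is also counted among the 3. Of the 53 genes between protein-coding genes with a pooled summit within 2000 bp, the best one lay 1 to 200 bp upstream for 12, inside the gene for 3 and 1 to 200 bp downstream for 4, and farther away for the others. In the pooled list, 109 of the 244 genes had any summit within 2000 bp. Of their highest summits, 24 lay 201 to 1000 bp upstream and 19 lay 1001 to 2000 bp upstream, against 14 and 21 at the same distances downstream. The other 2 optimal summits lay farther downstream of same-strand hairpins: rank 113 at 922 bp past mir-4929 and rank 237 at 1514 bp past mir-8192.

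Just inside the 200 bp limit of the optimal list were mir-74 (122 bp), mir-44 (123 bp) and mir-55b (160 bp), and just outside it were mir-8201 (230 bp), mir-64 (307 bp) and mir-62 (336 bp). The summit near mir-8201 ranked 43 and lies in its host hil-2, a linker histone gene of 978 bp. Within 200 bp, mir-8201 had a peak in replicate 1 only, at rank 2723. The summit near mir-62 ranked 26, above all 13 genes counted. It lay 336 bp upstream of mir-62, a mirtron, meaning a hairpin that is a whole intron cut out by splicing, in the glucuronosyltransferase gene ugt-50. Within 200 bp mir-62 itself had a pooled rank of 2736 and a replicate 1 rank of 3268, and replicate 2 had no peak.

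**Figure D4:**
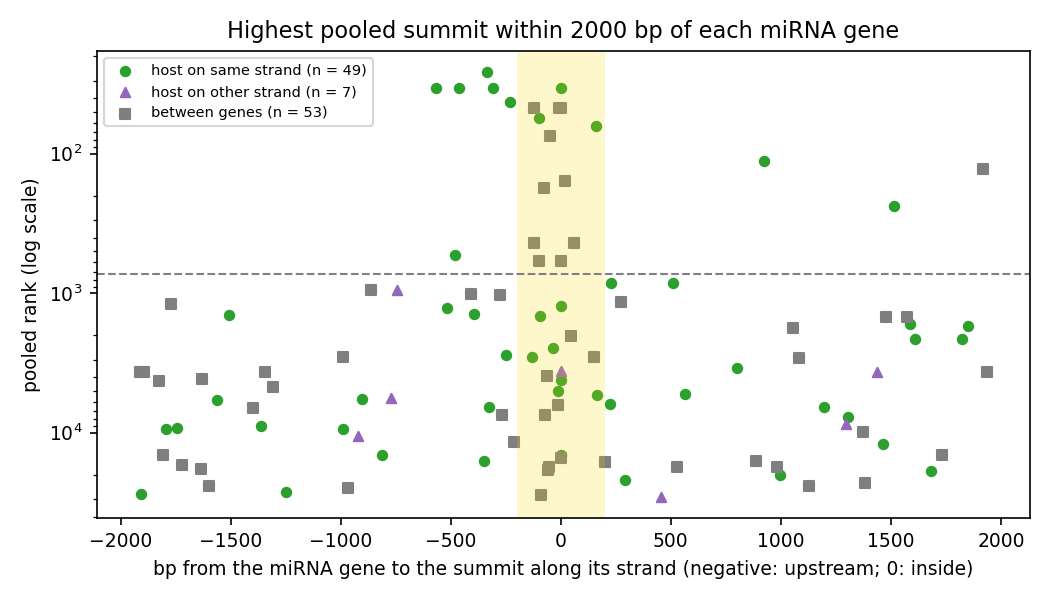
Position of the highest pooled summit within 2000 bp of each miRNA gene, in bp along the gene's strand (negative is upstream, 0 is inside), against its pooled rank on a log scale, for genes with a host on the same strand (circles), on the other strand (triangles) and between genes (squares). The shaded band marks 200 bp on each side and the dashed line rank 724. Squares above the line lie in the band, with mir-238 at 1916 bp the exception.

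Genes known for later or cell-restricted roles were also looked at as lists. Of 9 genes known for larval timing or belonging to the let-7 and lin-4 families (lin-4, let-7, mir-48, mir-84, mir-237, mir-241, mir-793, mir-794 and mir-795), 0 had an optimal summit and 8 had no summit in any list. The exception was mir-794, at pooled rank 17496. Over all 244 genes, 5.33% had an optimal summit and 159 had none in any list, so with 9 genes a count of 0 says little about the list. The muscle gene mir-1 had none within 200 bp in any list, but a pooled summit of rank 1039 lay upstream of it, at -277 bp along its strand. The neuronal genes lsy-6, mir-273 and mir-791 had none within 200 bp in any list. The neuronal gene mir-124, in an intron of trpa-1, ranked 2489 in the pooled list, with replicate 1 at 7386 and replicate 2 at 2321. The glial gene mir-228 ranked 14350, with replicate 1 at 8631 and no peak in replicate 2. Of 4 mirtrons, mir-62 was the only one with a peak in any list, and mir-1018, mir-1019 and mir-1020 had none. The annotation places mir-1018 between protein-coding genes. In whole embryos, fewer cells with polymerase at a gene and less polymerase per cell cannot be told apart.

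Among 9 single genes of families conserved across animals, 1 had an optimal summit, mir-72. Over all 244 genes the share was 5.33%, so with 9 genes a count of 1 says little about the list. In the pooled list mir-87 ranked 1462, mir-236 (a relative of the vertebrate miR-200 family) 3918, mir-79 4975 and mir-57 6282. The genes mir-34, mir-235 and mir-252 had no summit in any list, as was the case for 159 of the 244, and mir-71 had a peak in replicate 2 only.

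Most of the 244 genes had no peak. A summit of the upper 2000 pooled peaks lay within 200 bp of 18 (7.38%), against 3.46% of all annotated genes and 0.963% of genome positions. For the upper 5000 it was 30 (12.3%), against 7.1% and 2.38%, and for the upper 10000 it was 36 (14.8%), against 11% and 4.69%. In the whole pooled list 61 (25%) had a summit within 200 bp, against 19.1% of all annotated genes and 13.2% of genome positions, and 159 had none in the pooled list or either replicate. The median of their best pooled ranks was 5043, against 7696 for the 8977 annotated genes with a pooled summit. The genes that were left out by name, many of them known for high levels in embryos, had an optimal summit in 14 of 17 cases (82.4%, 56.6 to 96.2). Those 14 rest on 9 summits, and the interval treats genes on a shared summit as separate. Over all annotated genes the share was 1.52%. By chromosome, optimal summits were found at 1 of 33 genes on I, 5 of 42 on II, 1 of 26 on III, 0 of 46 on IV, 2 of 28 on V and 4 of 69 on X.

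Genes with low numbers, which were mostly named earlier, held 12 of the 13 optimal counts. This split was chosen after the values had been seen. Of 103 genes that have a name or a number under 400, 12 had an optimal summit (11.7%), against 1 of 141 genes with a number of 400 or higher (0.709%), which was mir-8196a. Over all annotated genes the share was 1.52%. Divided by class, the same 13 genes gave 9 of 68 against 1 of 80 between genes, and 3 of 29 against 0 of 45 inside same-strand hosts. In the upper 5000 pooled peaks, which include the optimal peaks, the counts were 23 of 103 and 7 of 141. Neither is a separate check of the split, and genes on a shared summit were counted separately.

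Each replicate had 12 of the 244 genes (4.92%) at its own upper 724 peaks, against 1.5% of all annotated genes in replicate 1 and 1.53% in replicate 2. The genes in both sets were 7: mir-229, mir-42, mir-43, mir-44, mir-45, mir-2 and mir-72. In replicate 1 only were mir-61, mir-250, mir-55b, mir-87 and mir-90, and in replicate 2 only mir-73, mir-74, mir-8196a, mir-86 and mir-8211. Over the 40 genes with a summit in both replicates, Spearman's rho of the ranks was 0.552, given as a description since genes share summits and the replicates share a control. A further 44 genes had a summit in 1 replicate only.

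**Figure D5:**
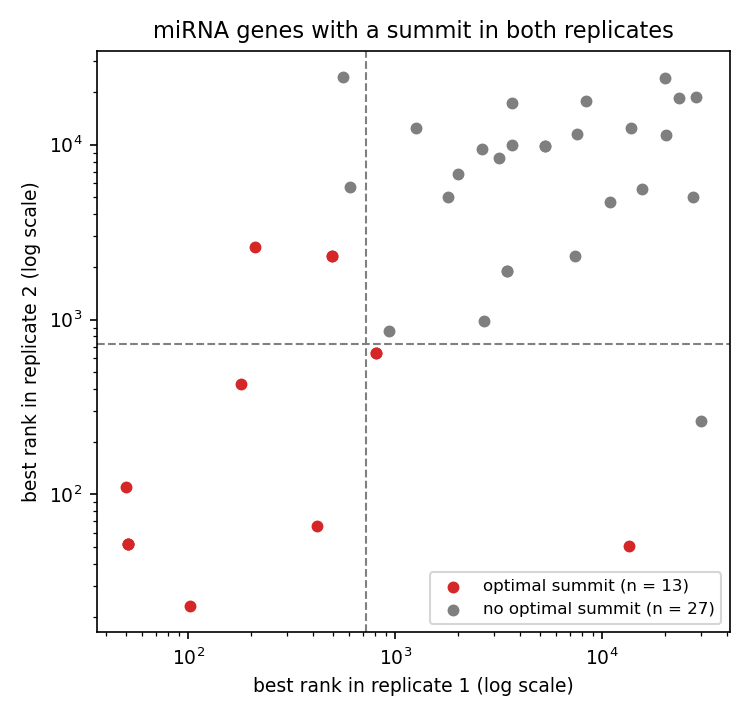
Best rank in replicate 1 against best rank in replicate 2, both on log scales, for the 40 miRNA genes with a summit within 200 bp in both, with genes that have an optimal summit in red (13) and the others in grey (27). Dashed lines mark rank 724 and genes on a shared summit coincide. Red points in the lower left corner are the 7 genes in both upper sets, and mir-8196a is the red point far to the right.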

How the data were processed

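AMA-1 ChIP-seq of early embryos was represented by peak lists in 2 replicates of 1 group. Per the deposited text notes, the authors made relaxed lists of 30000 peaks per replicate and for both pooled, and an IDR-thresholded optimal list of 724 peaks, on ce11. The deposited signal of each peak served only to order peaks inside a list. The labels and notes do not state aligner, peak caller, thresholds or depth. The 724 optimal peaks were the 724 pooled peaks of highest signal. Lists on ce10 were not used.

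Gene models were those of Ensembl release 115 (WBcel235, which is ce11). All 244 members matched a RefSeq gene, and 243 had mature strands there. Which arm is the guide rests on background knowledge. Host class went by any overlap with a protein-coding gene, the same strand first (2 members had hosts on both). Position shares count bases as near to a summit as the centre of a gene of 94 bp would be. Shares have exact binomial 95% intervals (SciPy 1.17.1), hairpins were aligned with Biopython 1.88, and no test was made, since there is a single group. Matching of summits to genes was tested on planted summits. Named genes are all with an optimal summit, the 20 best by pooled rank, lists by role or cluster, and those beside the 200 bp limit. Others (mir-247 and mir-797 as a pair, mir-50, mir-58b, mir-58c, mir-238, the other-strand genes and those with far summits) were named after their values were seen. Members, lists and rules were chosen with earlier results of these data known.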

Additional observations from a re-analysis of the deposited data

How the results depend on the processing

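The count of 13 genes with an optimal summit stayed within 1.5 times of itself under every alternative tried, from 9 in the upper 362 optimal peaks to 18 in the upper 2000 pooled peaks or with a 500 bp window. On 1 replicate's own upper 724 peaks it was 12 in either case, with 7 genes common to both. The count of 3 same-strand genes was 8 in the upper 2000 pooled peaks, 8 with a 500 bp window, 1 when the peak itself had to overlap the gene, and 4 to 5 when 1 replicate was left out. The count of 10 genes between protein-coding genes was 6 in the upper 362 peaks, without mir-61, mir-250, mir-73 and mir-74, and 7 to 8 when 1 replicate was left out. The cause was not tested. The other-strand count was 0 under each. Leaving out the 9 genes with under 50% unique 31-base stretches changed none of these counts. For single genes, 6 of 29 pooled ranks were counted as moved, against the replicates' spread, with a 500 bp window and 1 of 24 with 100 bp. The other 5 of the 29 genes had no pooled summit left within 100 bp. Of the 6, mir-228, mir-62, mir-64 and mir-86 had a peak within 200 bp in 1 replicate only, so there was no spread between replicates to set them against. No paired analysis was possible because there is a single group. Depth, which is unknown, limits what the missing peaks show.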
